A study of Mus musculus with 24 samples.

Results

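H3K4me1 and H3K4me2, the mono- and di-methylated forms of lysine 4 of histone H3, were compared as peak lists in 2 mouse small cell lung cancer lines, 159-1 and 1014. The comparison rests on 4 of the 24 samples of the series, namely 1 H3K4me1 and 1 H3K4me2 list from each line, chosen by antibody and by control guide RNA. Along the genome, 30586 bins of 1 kb carried both marks in both lines, 42020 carried H3K4me1 alone and 27791 carried H3K4me2 alone. Bins with H3K4me2 alone lay mostly near gene ends, and bins with H3K4me1 alone lay farther from gene ends than those of the other classes, though nearer than the genome as a whole.

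Methyl groups on H3K4 are added by the KMT2 and SETD1 complexes and removed by the KDM1 and KDM5 demethylases. Mono-methylation is best known from enhancers, where complexes built on KMT2C or KMT2D, which contain KDM6A, place much of it. Di-methylation is found at both enhancers and promoters, and active CpG-rich promoters usually have a central zone of higher methylation states flanked by H3K4me1. In small cell lung cancer, the neuroendocrine state is maintained by transcription factors such as INSM1 and NKX2-1, and enhancers and promoters of their targets carry H3K4 methylation.

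Lines 159-1 and 1014 are early-passage cultures from tumours of the RPP mouse model that had received a control guide RNA (sgControl) and are wild type for Kdm6a. In this model the tumour suppressor genes Rb1, Trp53 and Rbl2 are deleted in the lung, which both lines share, and each line is 1 culture. Other samples of the series are lines 236L and 236R with a guide RNA against Kdm6a, lists for H3K27me3 and KDM6A, and 10 input libraries without a list. The series as a whole asks about KDM6A, and its labels give no purpose for setting one H3K4 mark against the other.

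Cells were untreated. The labels' protocols give plating in low-attachment plates, collection 24 h later and fixation in 1% paraformaldehyde for H3K4me2. They do not name H3K4me1 there, so these steps are not known for H3K4me1. H3K4me1 has a set of input libraries of its own, so the mark and the batch cannot be told apart in any comparison below. A list holds positions, a fold enrichment per peak and its significance, with no read counts, so the depth of the libraries is unknown. A shorter list can therefore reflect fewer marked sites or a less sensitive library, and these cannot be told apart.

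The line of each H3K4me2 library is uncertain. The deposited list of the library labelled 159-1 carries the name of 1014 inside it, and the list of the library labelled 1014 carries the name of 159. Among the 5799 bins that were marked in a single line by H3K4me1 and also in a single line by H3K4me2, the same line was marked in 24.7% by the sample labels and in 75.3% by the deposited names. With KDM6A in place of H3K4me1, 71.7% of 2328 bins matched by the deposited names, whereas with H3K27me3 31.0% of 1210 bins did. Chromosome 19 held 1.14% of the H3K4me1 cover in 159-1 and 2.80% in 1014, but 3.15% of the H3K4me2 cover in the library labelled 159-1 and 2.17% in the library labelled 1014. KDM6A (1.29% and 3.05%) and H3K27me3 (0.541% and 4.03%) had the same order on this chromosome as H3K4me1. Classes that require a mark in both lines, and calls over all 4 libraries, are the same under either assignment. Values that pair the marks within a line follow the sample labels unless stated otherwise.

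The sequences of 5 start sites show the kinds of promoter that carried each combination. Each is the 300 bp window from 250 bp before to 50 bp after an annotated start (RefSeq, GRCm38.p6, the assembly of mm10), printed along the strand of the gene with every CpG in capitals. Rxra, which encodes the retinoid X receptor alpha, has a start marked by H3K4me2 alone and a second start, downstream in the gene, marked by H3K4me1 alone. The first lies at chr2:27676951-27677250 (plus strand) and holds 55 CpG. The second lies at chr2:27709042-27709341 (plus strand) and holds 1 CpG. Chga encodes the secretory granule protein chromogranin A, and its start at chr12:102554691-102554990 (plus strand), with 21 CpG, carried H3K4me2 alone. The start of the receptor gene Notch1 at chr2:26503773-26504072 (minus strand), with 23 CpG, carried both marks. Krt5, a keratin of basal epithelial cells, had H3K4me1 alone at chr15:101712856-101713155 (minus strand), with 6 CpG.
Rxra start with H3K4me2 alone: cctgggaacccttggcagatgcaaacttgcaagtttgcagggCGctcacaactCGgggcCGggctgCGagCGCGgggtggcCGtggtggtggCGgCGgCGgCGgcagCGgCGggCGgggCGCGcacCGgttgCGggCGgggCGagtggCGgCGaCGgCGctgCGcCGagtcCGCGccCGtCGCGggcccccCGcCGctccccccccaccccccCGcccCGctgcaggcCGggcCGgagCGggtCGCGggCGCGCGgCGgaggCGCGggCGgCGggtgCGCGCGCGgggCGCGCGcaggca
Rxra start with H3K4me1 alone: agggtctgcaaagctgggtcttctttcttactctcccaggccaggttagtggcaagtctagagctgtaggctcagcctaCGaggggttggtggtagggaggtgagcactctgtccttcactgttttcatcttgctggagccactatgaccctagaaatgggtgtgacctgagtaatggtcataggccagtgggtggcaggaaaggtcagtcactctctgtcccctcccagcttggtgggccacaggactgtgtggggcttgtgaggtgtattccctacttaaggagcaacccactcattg
Chga start with H3K4me2 alone: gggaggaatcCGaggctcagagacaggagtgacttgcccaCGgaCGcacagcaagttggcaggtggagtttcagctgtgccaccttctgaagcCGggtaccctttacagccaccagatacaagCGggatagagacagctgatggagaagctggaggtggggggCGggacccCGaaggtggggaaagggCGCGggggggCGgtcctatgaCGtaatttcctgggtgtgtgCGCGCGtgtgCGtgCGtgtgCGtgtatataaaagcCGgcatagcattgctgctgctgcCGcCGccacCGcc
Notch1 start with both marks: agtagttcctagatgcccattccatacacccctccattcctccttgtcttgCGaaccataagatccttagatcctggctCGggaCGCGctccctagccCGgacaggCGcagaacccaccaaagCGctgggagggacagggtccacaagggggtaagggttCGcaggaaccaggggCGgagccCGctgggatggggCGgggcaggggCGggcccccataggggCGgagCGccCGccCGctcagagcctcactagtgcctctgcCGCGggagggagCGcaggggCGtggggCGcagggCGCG
Krt5 start with H3K4me1 alone: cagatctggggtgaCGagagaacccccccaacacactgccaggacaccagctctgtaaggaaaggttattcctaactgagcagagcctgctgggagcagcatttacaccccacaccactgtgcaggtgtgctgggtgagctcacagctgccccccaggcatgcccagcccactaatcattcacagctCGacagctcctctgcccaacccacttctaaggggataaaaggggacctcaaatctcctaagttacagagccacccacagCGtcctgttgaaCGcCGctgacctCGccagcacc

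In the full lists, H3K4me1 covered more of the genome than H3K4me2 in both lines. The H3K4me1 lists held 82915 peaks in 159-1 and 88582 in 1014, and the H3K4me2 lists 58368 and 56481 in the libraries labelled so. Peaks covered 118.8 and 134.6 Mb for H3K4me1 and 85.2 and 87.6 Mb for H3K4me2. The means of 126.7 ± 11.2 Mb and 86.4 ± 1.74 Mb (SD, n = 2 libraries each) differed with p = 0.33 by an exact two-sided permutation test, the smallest value that 2 libraries against 2 can give. No comparison of the 4 libraries can therefore pass 0.05, and separation of the libraries is described instead. With peaks of q up to 0.001, the difference of H3K4me2 minus H3K4me1 shrank from -40.3 to -8.13 Mb (exact permutation p = 0.667, two-sided), and the libraries of the marks no longer separated. This threshold, a −log10 q of 3, lay above the medians of the H3K4me1 lists (2.73 and 2.91) and below those of the H3K4me2 lists (6.24 and 7.98). It therefore removed a larger share of the H3K4me1 peaks, and −log10 q also depends on the unknown depth.

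The median peak was slightly narrower for H3K4me1, and peaks of 5 kb or more were more frequent in its lists. Median widths were 921 and 929 bp for H3K4me1 and 974 and 1077 bp for H3K4me2, a difference in means of 100.5 bp (exact permutation p = 0.33, two-sided). This order turned around at q up to 0.001, the threshold that removed a larger share of the H3K4me1 peaks. Medians were then 1637 and 1603 bp for H3K4me1 and 1314 and 1285 bp for H3K4me2. With peaks within 1 kb of each other merged, medians of 1023 and 1028 bp for H3K4me1 lay between those of 1009 and 1100 bp for H3K4me2. Peaks of 5 kb or more made up 3.39 and 4.29% of the H3K4me1 lists and 2.91 and 3.09% of the H3K4me2 lists. Domains of 10 kb or more numbered 470 and 739 for H3K4me1 against 129 and 103 for H3K4me2. Wide peaks of at least 5 kb held 18.6 and 23.5% of the total peak length for H3K4me1 and 13.7% in both H3K4me2 libraries. In all 4 lists the widest peak was the same region of chromosome 8, which contains no protein-coding gene and lies 0.344 kb from Gas8. It formed a run of 87 adjacent bins with both marks, chr8:123537001-123624000.

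More bins carried 1 mark alone than both marks. A bin was marked where merged peaks covered at least 50% of it, and a bin of 1 class was marked in both lines for the stated mark and in neither line for the other. H3K4me1 marked 86334 bins in both lines, of which 30586 (35.4%) also had H3K4me2 in both lines, 42020 (48.7%) had it in neither and 13728 (15.9%) had it in 1 line. H3K4me2 marked 67432 bins in both lines, of which 45.4% had H3K4me1 in both lines, 41.2% (27791 bins) in neither and 13.4% (9055 bins) in 1 line. Between the lines, the marked bins overlapped by 56.6% of their union for H3K4me1 and by 69.3% for H3K4me2. Within a line the marks overlapped by 29.2% of the union in 159-1 and 24.8% in 1014, and by 28.8 and 27.3% with H3K4me2 assigned by the deposited names. The lines thus resembled each other more within a mark than the marks did within a line. The larger number of bins with H3K4me1 alone did not hold at equal list length, where 27316 bins had H3K4me1 alone and 35037 had H3K4me2 alone. For this, the longer list of each line, that of H3K4me1, was cut by significance to the covered length of the H3K4me2 list. Such a cut can only lower the count for H3K4me1 alone and raise that for H3K4me2 alone. Leaving out the H3K4me2 library labelled 159-1 kept the order of the full lists, with 49641 bins for H3K4me1 alone and 35154 for H3K4me2 alone. Without the H3K4me2 library labelled 1014 they numbered 48127 and 30739. Leaving out an H3K4me1 library gave 75385 and 32624 without 159-1, and 59909 and 32013 without 1014. That step could not turn the order, since H3K4me2 alone can gain only the 9055 bins with H3K4me1 in 1 line.

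Among the classes, H3K4me2 alone lay nearest to gene ends and H3K4me1 alone farthest from them. Of the bins with H3K4me2 alone, 72.2% lay within 2.5 kb of an end of a protein-coding gene, against 28.2% of bins with both marks, 9.38% of bins with H3K4me1 alone and 6.69% of all bins of the genome. Median distances to the nearest gene end were 0.950 kb for H3K4me2 alone, 9.94 kb for both marks and 24.1 kb for H3K4me1 alone, and 53.4 kb for all bins. By library, 17.7 and 16.2% of H3K4me1 bins and 45.0 and 43.5% of H3K4me2 bins were within 2.5 kb, so the marks did not overlap. The difference of 27.4 percentage points had p = 0.33 (exact two-sided permutation test, n = 2 libraries each). Beyond 2.5 kb from any gene end, 56.0% of the bins with H3K4me1 alone were inside gene bodies and 34.6% were intergenic. For H3K4me2 alone these shares were 17.0 and 10.8%, and for both marks 44.8 and 26.98%. The order of the classes was the same at distances of 1 and 5 kb, at equal list length and within each line.

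**Figure D1:**
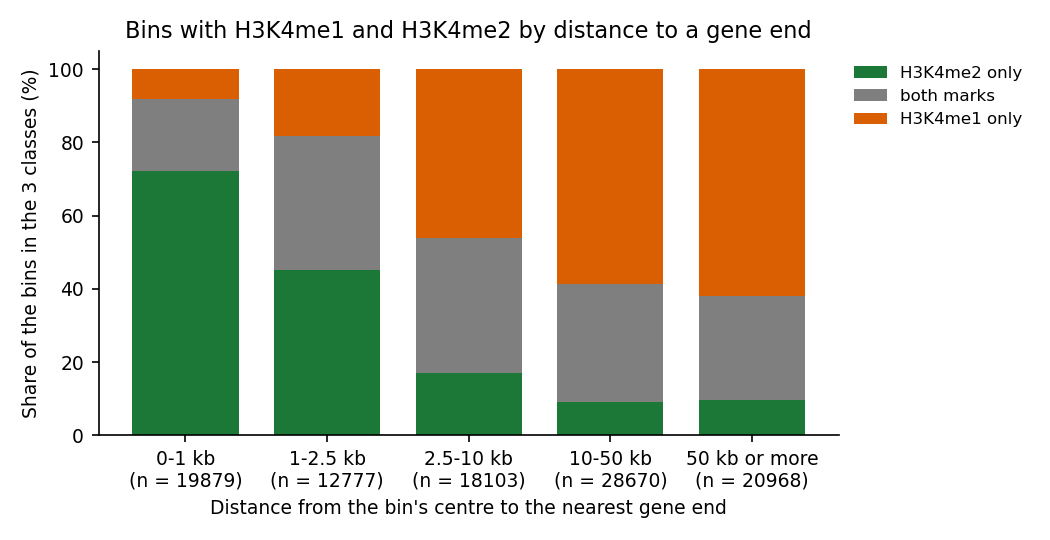
Share of the bins in the 3 classes (vertical axis, %) by the distance of the bin's centre from the nearest end of a protein-coding gene (horizontal axis), with the number of bins below each bar. Bins with H3K4me2 alone made up 72.0% within 1 kb, and bins with H3K4me1 alone 61.8% at 50 kb or more.

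The change of composition with distance was gradual. Within 1 kb of a gene end, 72.0% of the 19879 bins in the 3 classes had H3K4me2 alone and 8.09% had H3K4me1 alone. From 1 to 2.5 kb these shares were 45.1 and 18.3%, and from 2.5 to 10 kb they were 17.1 and 46.0%. Beyond 50 kb, 61.8% had H3K4me1 alone and 9.52% H3K4me2 alone. As a share of the 3 classes, bins with both marks were lowest next to gene ends (19.9%) and highest from 1 to 10 kb (36.7 and 36.95%). The 3 classes together held 25.1% of all genome bins within 1 kb of a gene end, 12.4% from 1 to 2.5 kb, 4.90% from 2.5 to 10 kb and 1.50% at 50 kb or more, so a low share of a class near gene ends does not mean that it was rare there.

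H3K4me2 near genes was concentrated at start sites and not at far gene ends. Start sites with a strand were known for 17492 of the 21887 protein-coding genes (79.9%), at 21238 distinct positions. H3K4me2 covered 63.4 and 62.0% of these positions in the libraries labelled 159-1 and 1014, and H3K4me1 covered 14.5 and 14.3%. H3K4me1 had a dip at the start between shoulders on both sides. Its highest values were 24.2% at 1200 bp downstream in 159-1 and 23.1% at 1400 bp downstream in 1014, and the upstream shoulder reached 17.7% in both lines, at 700 and 800 bp. At 2 kb downstream H3K4me2 had declined to 25.7 and 26.8%. The far ends of genes had no such peak, with 7.92 and 8.82% of sites covered by H3K4me1 and 6.69 and 6.71% by H3K4me2.

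**Figure D2:**
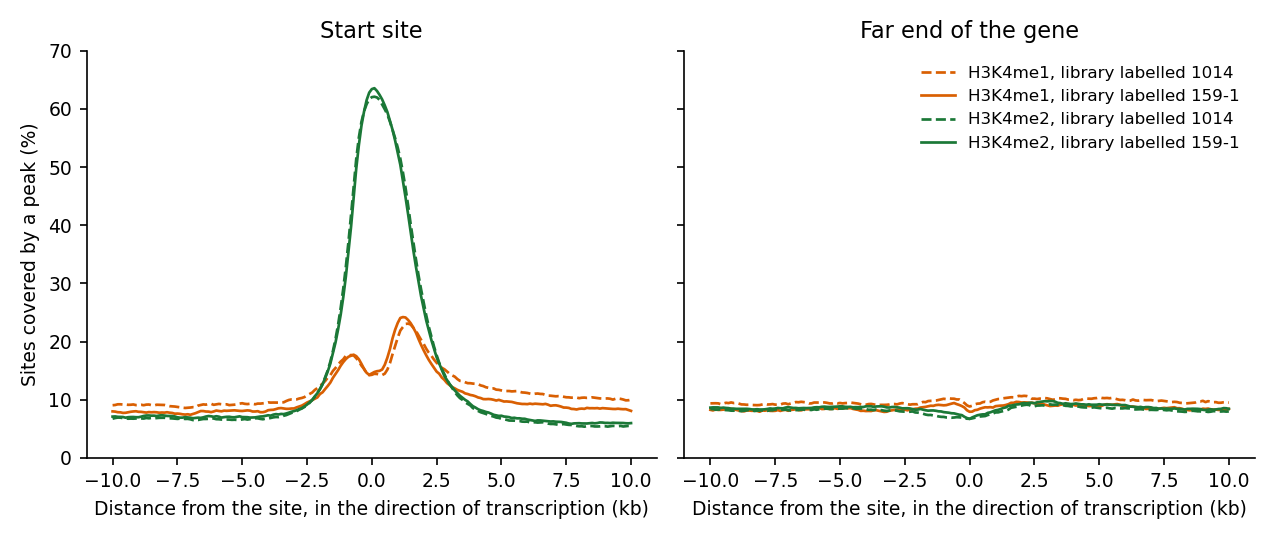
Share of sites covered by a peak (vertical axis, %) against distance from annotated start sites (left) and from the far ends of genes (right) in kb, along the direction of transcription. Lines are the 4 libraries; H3K4me2 peaks at the start with 63.4 and 62.0%, whereas H3K4me1 dips there to 14.5 and 14.3% between 2 shoulders.

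Most starts with H3K4me2 alone had H3K4me1 nearby. Of 21263 start windows of 300 bp, 10042 (47.2%) carried H3K4me2 alone, 1644 (7.73%) both marks, 305 (1.43%) H3K4me1 alone and 6991 (32.9%) neither. The state differed between lines for 2281 windows. Among starts with H3K4me2 alone, 70.2% in 159-1 and 70.1% in 1014 had an H3K4me1 peak somewhere within 3 kb. At 1 kb downstream of these starts, H3K4me1 covered 29.5 and 24.5%, and at the start itself 0.827 and 0.707%. Of starts with neither mark, 14.7 and 16.3% had H3K4me1 within 3 kb. Starts with H3K4me1 alone had an H3K4me2 peak within 3 kb in 65.6 and 56.7% of cases. A start of each single-mark kind was present in 40 genes, of which Rxra is an example.

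CpG content was high at starts with H3K4me2 alone and low at starts with H3K4me1 alone or neither mark, and the latter classes overlapped. The median window held 23 CpG for H3K4me2 alone, 15 for both marks, 4 for H3K4me1 alone and 3 for neither mark. The ratio of observed to expected CpG had medians of 0.810, 0.567, 0.187 and 0.179. Of the 3283 windows with 30 or more CpG, 84.1% carried H3K4me2 alone and 0% H3K4me1 alone. Of the 6035 windows with 0 to 4 CpG, 83.1% carried neither mark, 3.08% H3K4me2 alone and 2.80% H3K4me1 alone. Windows with both marks were spread over low and high CpG ratios (quartiles 0.318 and 0.757).

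**Figure D3:**
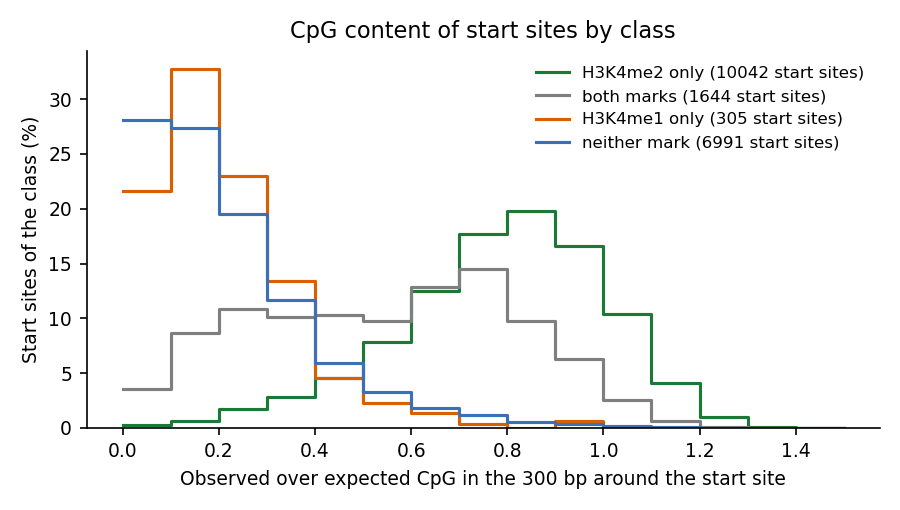
Distribution of the ratio of observed to expected CpG in 300 bp start windows (horizontal axis, steps of 0.1) as a share of the start sites of each class (vertical axis, %). H3K4me2 alone has a median of 0.810 and H3K4me1 alone a median of 0.187, close to that of windows with neither mark (0.179).

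Short motifs were searched in the same windows on both strands. GGGCGG, the core of the GC box and itself CpG-containing, was present in 69.3% of windows with H3K4me2 alone, 61.1% with both marks, 25.6% with H3K4me1 alone and 46.2% of all windows. TATAAA was present in 5.75, 8.09 and 11.5% of these classes, in 24.7% of windows with neither mark and in 12.6% of all. CAGCTG, an E-box, was present in 13.3% of windows with H3K4me2 alone, 22.0% with both marks, 28.2% with H3K4me1 alone and 15.6% of all. Of the windows printed above, Chga held each of these motifs and Krt5 held the E-box alone. A match describes letters in the window and does not show that a factor was bound.

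H3K4me1 covered a smaller share of the length of H3K4me2 peaks in the 3 highest deciles of fold enrichment than in the 6 lowest. The fold enrichment is the authors' own value for each peak and was used to rank peaks within a list. In the lowest 6 deciles of the H3K4me2 lists, H3K4me1 covered 63.1 to 74.9% of the peak length, and in the highest 3 deciles it covered 37.4 to 48.2%. Over the same range, the share of H3K4me2 peaks with a gene end within 2.5 kb was between 7.79 and 12.0% in the lowest 6 deciles and reached 72.2 and 69.6% in the highest. Away from gene ends the trend was weaker, and the fall came only in the upper deciles. Cover there was 68.3 and 69.9% in decile 1, 77.6 and 74.1% in decile 6, and 55.7 and 47.8% in the highest. H3K4me1 peaks had the opposite trend: H3K4me2 covered 22.1 and 20.4% of the length of the lowest decile and 49.5 and 37.6% of the highest. Their share near gene ends was between 15.4 and 21.1% in every decile. With H3K4me2 assigned by the deposited names, H3K4me1 covered 42.8 and 40.0% of decile 9 of the H3K4me2 lists and 80.0 and 72.9% of decile 5.

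**Figure D4:**
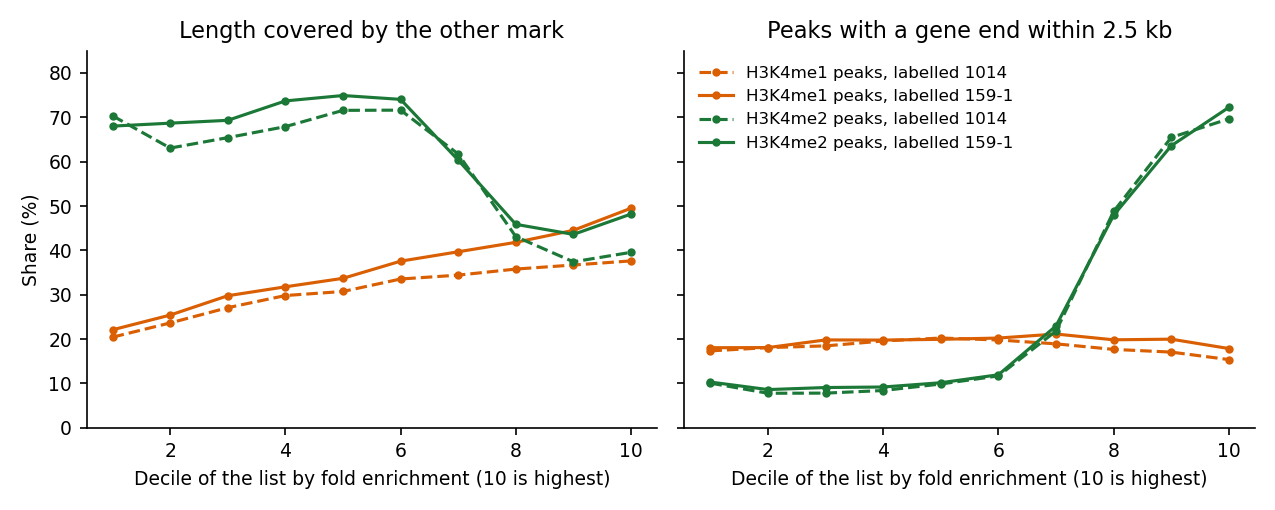
Peaks of each list in deciles of fold enrichment (horizontal axis), with the share of their length covered by the other mark in the same line by sample label (left, %) and the share of peaks with a gene end within 2.5 kb (right, %). Cover of H3K4me2 peaks by H3K4me1 falls to 37.4 to 48.2% in the 3 highest deciles, where the share near gene ends is highest.

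No H3K4me2 peak overlapped 44.3% of the H3K4me1 peaks in 159-1 and 50.1% in 1014. Conversely, 23.2 and 24.3% of H3K4me2 peaks overlapped no H3K4me1 peak, and 60.8 and 57.6% were covered by H3K4me1 over at least 50% of their length. H3K4me2 peaks covered over some but under 50% of their length were wide (medians 2208 and 2298 bp) and had median folds of 8.72 and 9.33. Those covered over at least 50% had medians of 937 and 1024 bp and folds of 4.44 and 4.88. H3K4me2 peaks without any H3K4me1 were the narrowest (630 and 752 bp) and had the lowest median folds, 4.21 and 4.58. Their upper quartiles of fold, 7.46 and 8.14, were however above those of peaks covered over at least 50% (6.78 and 7.15). By fold, 28.7 and 26.8% of the lowest decile and 16.3 and 18.6% of the highest overlapped no H3K4me1 peak. The share did not fall steadily between them, with 18.9 and 18.4% in decile 6 and 23.4 and 23.7% in decile 8.

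By gene, 2950 of 21887 protein-coding genes (13.5%) were dominated by H3K4me1 and 3920 (17.9%) by H3K4me2. The covered length was summed from 10 kb before to 10 kb after each gene, and a gene was called where the lowest library of a mark exceeded the highest of the other by at least 2 kb. These counts depended on list length. At equal covered length 1601 genes were dominated by H3K4me1 and 6745 by H3K4me2. Only the H3K4me1 lists were cut for this, to 49.1 and 38.6% of their peaks. A call for H3K4me2 could therefore not be lost, and one for H3K4me1 could not be gained. That all 1601 and 3920 of the latter were among the genes called from the full lists was thus fixed in advance. A kept H3K4me2 call at equal length, here or below, is no sign of robustness. Of the genes called with the full lists, 14 had the opposite call at equal length. Genes dominated by H3K4me1 were long, with a median length of 42.4 kb against 21.3 kb for H3K4me2 and 17.2 kb for all genes. Among genes of 200 kb or more, 33.2% were dominated by H3K4me1 and 10.9% by H3K4me2. Among genes under 5 kb these shares were 4.49 and 10.4%. A ranking by kb thus favours long genes for H3K4me1, and named genes were also ranked by the share of their window.

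The widest separations towards H3K4me1 in kb lay over long genes. Camta1, a calmodulin-binding transcription activator, had 313 kb of H3K4me1 in 159-1 and 363 kb in 1014 against 88.4 and 79.0 kb of H3K4me2, the widest separation of any gene (224 kb). At Msi2, which encodes an RNA-binding protein found in stem cells, peaks spanned 242.0 and 287.6 kb of H3K4me1 against 83.0 and 81.6 kb. Gse1, a component of the CoREST co-repressor, carried much of both marks, with 294 and 312 kb of H3K4me1 and 130.3 and 121.8 kb of H3K4me2. Nav2, which guides growing axons, had 192 and 222 kb against 65.3 and 64.5 kb. The splicing regulator gene Rbfox3 had 174.0 and 177.7 kb against 46.5 and 37.8 kb. Sorcs2, a sorting receptor of neurons, had 164 and 196 kb against 40.8 and 33.5 kb. These genes were chosen by the separation of their libraries, so that separation is not a further result.

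Shorter genes stood out by the share of their window. Sstr5, a somatostatin receptor, had 20.3 and 25.4 kb of H3K4me1 against 4.47 and 1.22 kb of H3K4me2, a separation of 57.8% of its window. Rxra had 71.2 and 62.9 kb against 13.7 and 12.9 kb (46.1% of the window), although its CpG-rich start carried H3K4me2 alone. These sums do not show where in the window H3K4me1 lay. Acot7, an acyl-CoA thioesterase of neurons, had 70.9 and 74.5 kb against 17.0 and 16.0 kb. Stra6, the cellular retinol transporter, had 75.5 and 84.9 kb against 24.9 and 21.8 kb. Rap1gap, which inactivates the GTPase RAP1, had 71.6 and 73.6 kb against 27.2 and 23.0 kb. The complement gene C1qa had 16.9 and 19.2 kb against 5.16 and 4.13 kb.

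Genes with the widest separation towards H3K4me2 included several genes for transcription factors. Nkx2-1, the lung lineage factor, had 18.9 and 19.7 kb of H3K4me2 and 4.15 and 2.69 kb of H3K4me1, a separation of 59.0% of its window. Foxa1 and Foxa2, pioneer factors of endoderm, had 16.0 and 17.2 kb against 2.77 and 3.55 kb, and 17.2 and 18.9 kb against 5.41 and 3.39 kb. Cdkn1b, which encodes the cell cycle inhibitor p27, had 17.7 and 19.2 kb against 3.43 and 3.23 kb. Hnrnpu, a nuclear RNA-binding protein, had 13.1 and 15.0 kb against 0.373 and 0.672 kb. The rule that chose them requires the H3K4me2 libraries to be above both H3K4me1 libraries.

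Histone genes leaned to H3K4me2 as a group. H3c8 had 15.6 and 16.2 kb of H3K4me2 against 0.549 and 1.61 kb of H3K4me1, and H3c2 had 13.6 and 13.7 kb against 0.507 and 0.264 kb. Of 67 genes for core and linker histones, a group chosen after its values were seen, 59 were dominated by H3K4me2 and 1 by H3K4me1. Over all genes these shares were 17.9 and 13.5%. Their medians were 10.5 and 10.6 kb of H3K4me2 and 0.545 and 1.08 kb of H3K4me1. Many of these genes lie in clusters and their windows overlap, so they are not independent.

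**Figure D5:**
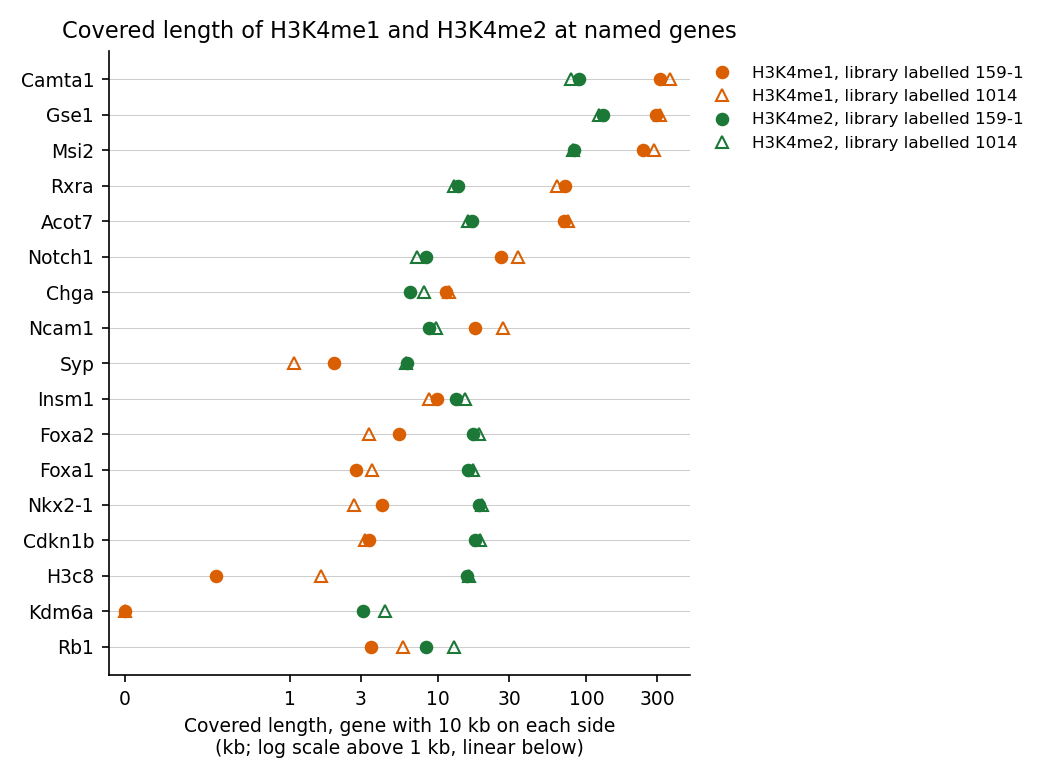
Length covered by H3K4me1 (orange) and H3K4me2 (green) in the gene with 10 kb on each side (horizontal axis, kb, log scale above 1 kb and linear below) for named genes, filled circles for libraries labelled 159-1 and open triangles for 1014. Camta1 has 313 and 363 kb of H3K4me1 and Nkx2-1 18.9 and 19.7 kb of H3K4me2, each above both libraries of the other mark, which the rule for a call requires.

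Neuroendocrine genes carried H3K4me2 at their starts and differed in the mark that dominated their surroundings. Of 18 start windows of 14 listed genes with a known strand, 17 carried H3K4me2 alone in both lines, against 47.2% of all start windows. By gene window, 8 of 20 were dominated by H3K4me2 and 4 by H3K4me1, with 17.9 and 13.5% over all genes. Insm1, a neuroendocrine zinc finger factor, had 13.1 and 15.3 kb of H3K4me2 against 9.88 and 8.64 kb of H3K4me1. Syp, a protein of synaptic vesicles, had 6.16 and 6.06 kb against 1.97 and 1.07 kb. Chga had 6.44 and 8.00 kb of H3K4me2 and more H3K4me1, 11.3 and 11.9 kb, in its window, with H3K4me2 alone at its start. Ncam1, a neural adhesion molecule, had 17.8 and 27.3 kb of H3K4me1 against 8.70 and 9.73 kb of H3K4me2. Neither Chga nor Ncam1 kept its call at equal list length, where H3K4me1 covered 8.84 and 7.31 kb at Chga and 9.86 and 1.27 kb at Ncam1. Calca, Uchl1 and Dll3, further markers, were not called, with 7.80 to 8.82 kb, 3.09 to 3.54 kb and 8.65 to 10.8 kb of H3K4me1 and 8.91 to 9.07 kb, 5.09 to 5.42 kb and 11.01 to 11.3 kb of H3K4me2.

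Lists of genes used in every cell leaned to H3K4me2. Over all genes, 17.9% were dominated by H3K4me2 and 13.5% by H3K4me1, and 47.2% of start windows carried H3K4me2 alone. Of 16 housekeeping genes 10 (62.5%) were dominated by H3K4me2 and 0 by H3K4me1, and 11 of their 12 start windows carried H3K4me2 alone. The tubulin gene Tubb5 had 11.1 and 10.9 kb of H3K4me2 against 3.05 and 3.66 kb of H3K4me1, and the TATA-binding protein gene Tbp 7.50 and 7.40 kb against 0.441 and 0.389 kb. Of 24 genes of the cell cycle and DNA replication 11 (45.8%) were dominated by H3K4me2 and 2 (Cdc6 and Mcm2) by H3K4me1. In this list 21 of 23 start windows carried H3K4me2 alone. Mcm2 lost its call at equal list length. Pcna, the sliding clamp of replication, had 8.74 and 9.06 kb of H3K4me2 against 0 and 0.944 kb. Of 28 ribosomal protein genes 10 (35.7%) were dominated by H3K4me2 and 1 (Rpl22) by H3K4me1, and 23 of 24 start windows carried H3K4me2 alone. The median of H3K4me1 minus H3K4me2 in the ribosomal windows was -2.41 kb in 159-1 but 0.072 kb in 1014 by sample label. The 4 genes deleted or targeted in the series were all dominated by H3K4me2, with 8.26 and 12.8 kb at Rb1, 7.74 and 7.89 kb at Trp53, 5.05 and 5.22 kb at Rbl2 and 3.10 and 4.38 kb at Kdm6a. H3K4me1 covered 3.55 and 5.81 kb, 3.45 and 4.65 kb, 1.84 and 1.99 kb, and 0 and 0 kb of these windows.

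Enzymes that write and erase these marks followed the same direction. Of 14 genes for H3K4 methyltransferase subunits and KDM6 enzymes 8 (57.1%) were dominated by H3K4me2 and 1, Paxip1, by H3K4me1. Over all genes these shares were 17.9 and 13.5%. Kmt2d, a methyltransferase of enhancers, had 12.0 and 12.4 kb of H3K4me2 against 6.20 and 7.42 kb of H3K4me1. Kdm6b, an H3K27 demethylase, had 20.5 and 19.7 kb against 12.6 and 14.2 kb. Of 10 genes for H3K4 demethylases and partners 4 (40.0%) were dominated by H3K4me2 and 1, Kdm1a, by H3K4me1 (13.3 and 14.5 kb against 7.56 and 9.41 kb). Neither Paxip1 nor Kdm1a kept its call at equal list length.

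In the full lists, oncogenic drivers and tuft cell genes were called more often for H3K4me1 than for H3K4me2, and Notch and YAP genes about equally often. Over all genes, 13.5% were dominated by H3K4me1 and 17.9% by H3K4me2. Of 14 genes of the Myc and Nfi families and related drivers 6 (42.9%) were dominated by H3K4me1 and 2 (14.3%) by H3K4me2. Nfix, a nuclear factor I transcription factor, had 54.4 and 48.6 kb of H3K4me1 against 24.7 and 24.8 kb of H3K4me2. Myc itself had 5.52 and 5.66 kb of H3K4me2 and no H3K4me1 peak in its window. Of 22 genes of Notch and YAP signalling and the non-neuroendocrine state 4 were dominated by H3K4me1 (Notch1, Notch2, Notch3 and Tead1) and 3 by H3K4me2 (Axl, Hes1 and Zeb1). The shares of 18.2 and 13.6% in this list are near those of all genes. Notch1 had 26.5 and 34.3 kb of H3K4me1 against 8.33 and 7.15 kb of H3K4me2, and Tead1, the DNA-binding partner of YAP, 121.0 and 129.0 kb against 33.3 and 43.1 kb. Hes1, a target of Notch, had 11.7 and 11.4 kb of H3K4me2 against 9.18 and 7.77 kb of H3K4me1. Of 12 genes of the POU2F3 tuft cell subtype 4 (33.3%) were dominated by H3K4me1 and 0 by H3K4me2. Of their 9 start windows 6 differed between lines, 2 carried neither mark, 1 carried both and 0 carried H3K4me2 alone. Over all windows 10.7% differed between lines and 47.2% carried H3K4me2 alone. At equal list length 4 and 6 genes of the Myc and Nfi list, 4 and 8 of the Notch list and 2 and 0 of the tuft list were dominated by H3K4me1 and H3K4me2, so H3K4me2 led in the first and the second of these lists there.

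Over all genes, 15017 of 21887 had no dominant mark, and lists of developmental regulators were near that share or above it. Of 39 HOX genes 6 (15.4%) were dominated by H3K4me2, 1 (2.56%) by H3K4me1 and 32 by neither, and 18 of 24 start windows carried neither mark. All of the called genes lie in the Hoxb cluster, where gene windows overlap, so they are not independent. Of that cluster, only Hoxb1, Hoxb4 and Hoxb8 had start windows, so the start windows mostly describe the other clusters. Over all genes, 17.9% were dominated by H3K4me2 and 13.5% by H3K4me1, and 32.9% of start windows carried neither mark. Hoxb3, a patterning factor with the longest cover among the called members, had 47.4 and 59.3 kb of H3K4me2 against 25.9 and 40.5 kb of H3K4me1. Of 40 other developmental transcription factors 7 (17.5%) were dominated by H3K4me2, among them Irx5 and Nr2f2, and 3 (7.5%) by H3K4me1. Lmx1b, a factor of limb and neurons, had 63.1 and 76.0 kb of H3K4me1 against 28.0 and 31.5 kb of H3K4me2. Among 20 neuronal genes linked to the NEUROD1 subtype 2 were dominated by each mark and 16 by neither.

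Long neural genes split between the marks. Of 25 genes of neuronal adhesion and axon guidance 6 were dominated by each mark, and of 20 genes of ion channels and synapses 7 by H3K4me1 and 5 by H3K4me2. The shares were 13.5% for H3K4me1 and 17.9% for H3K4me2 over all genes, and 33.2 and 10.9% among genes of 200 kb or more. Calls for H3K4me1 were thus frequent among long genes in general. Whether these lists differ from other genes of their length was not tested. Cdh13, a cadherin, had 156 and 186 kb of H3K4me1 against 42.0 and 45.5 kb of H3K4me2, and the calcium channel gene Cacna1c 145.0 and 207.6 kb against 47.1 and 38.3 kb. Cadm2, an adhesion molecule, had 1.15 and 1.70 kb of H3K4me1 against 7.36 and 13.7 kb of H3K4me2. Gria2, a glutamate receptor subunit, had no H3K4me1 peak and 3.57 and 3.70 kb of H3K4me2.

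No marker of the other cells that a tumour culture could hold was dominated by H3K4me2 in the full lists, against 17.9% of all genes. Of 15 immune genes 0 were dominated by H3K4me2 and 2, Cd4 and Lyz2, by H3K4me1, and 7 of 9 start windows carried neither mark. The 2 immune calls for H3K4me1 are a share of 13.3%, near that of all genes (13.5%), and neither gene kept its call at equal list length. Ptprc, Cd8a, Ms4a1 and Adgre1 had no peak of either mark. Of 15 fibroblast and endothelial genes 5 (33.3%) were dominated by H3K4me1 and 0 by H3K4me2, and Acta2, Col3a1 and Lum had no peak of either mark. Of 15 lung epithelial genes 4 (26.7%) were dominated by H3K4me1 (Aqp5, Foxj1, Krt5 and Scgb1a1) and 0 by H3K4me2, and Sftpd and Scgb3a2 had no peak. Foxj1, the factor of ciliated cells, had 16.5 and 19.5 kb of H3K4me1 against 8.17 and 4.85 kb of H3K4me2. Vwf, an endothelial clotting protein gene, had 35.8 and 37.9 kb against 17.8 and 17.7 kb. Summed over the list, H3K4me1 covered 5.28 and 5.73% of the windows of immune genes, 8.96 and 9.07% for fibroblast and endothelial genes, 10.3 and 12.6% for lung epithelial genes and 7.52 and 8.58% over all genes. H3K4me2 covered 4.84 and 4.34%, 4.87 and 4.94%, 8.24 and 6.87%, and 6.76 and 6.74% of the same windows. At equal list length, 3 of the immune genes and 2 of the lung epithelial genes were dominated by H3K4me2. The part of other cells in these values was not tested.

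Runs of adjacent bins showed where each class was longest. Runs of H3K4me2 alone had a mean of 1.85 kb and 357 were 5 kb or longer, against 1.38 kb and 288 for H3K4me1 alone. The longest run with H3K4me2 alone was 18 kb at chr15:85665001-85683000, between Wnt7b and Ppara and without a protein-coding gene, where both H3K4me2 libraries covered all 18 kb and H3K4me1 covered 0 kb. The next was 16 kb over Cdkn1b at chr6:134919001-134935000. Meis2, a homeodomain cofactor, held runs of 15 and 13 kb, and a run of 15 kb lay over Nkx2-1 at chr12:56523001-56538000. The longest runs with H3K4me1 alone were 10 kb inside Camta1 (chr4:151220001-151230000) and 10 kb inside Mical2 (chr7:112277001-112287000). Apart from the region beside Gas8, the longest runs with both marks were 12 kb in Aopep, 11 kb in Homer2 and 11 kb in Mcf2l.

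The classes differed in KDM6A and H3K27me3 from the same lines. KDM6A marked 29.2% of the bins with H3K4me2 alone in both lines, 17.3% of those with both marks, 1.03% of those with H3K4me1 alone and 0.599% of all bins. Beyond 2.5 kb from gene ends, the shares were 17.6, 18.3 and 0.966%, so the difference between H3K4me2 alone and both marks was seen near gene ends, where they were 33.6 and 14.8%. At start windows, KDM6A was present in both lines at 56.2% with H3K4me2 alone, 25.3% with both marks and 2.30% with H3K4me1 alone. H3K27me3, the repressive mark of Polycomb, marked 3.79% of the bins with both marks, 0.799% with H3K4me2 alone and 0.200% with H3K4me1 alone, against 1.19% of all bins. At start windows the contrast was wider, with 23.2% for both marks against 0.807% for H3K4me2 alone and 5.87% of all windows. Notch1 is an example, since its printed start window was covered fully by H3K4me1, H3K4me2 and H3K27me3 in both lines.

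In the Kdm6a-mutant lines, which had no part in defining the classes, the marks were found in the classes to different degrees. Over all bins, both mutant lines had H3K4me2 in 1.74% and H3K4me1 in 1.14%. H3K4me2 was found in both mutant lines at 84.5% of the bins with H3K4me2 alone in control lines, and at 36.2% of the bins with both marks. Within 2.5 kb of gene ends these shares were 93.0 and 68.0%, and beyond they were 62.3 and 23.6%. The classes differ in their share near gene ends, so the totals mix the class with the distance. H3K4me1 was found in both mutant lines at 9.15% of the bins with H3K4me1 alone and at 35.4% of those with both marks. The mutant lines differed from each other, and H3K4me1 marked 17.7% of the bins with H3K4me1 alone in 236L and 46.7% in 236R. Of bins with both marks, H3K4me1 marked 38.5% in 236L and 87.2% in 236R. At the bins with H3K4me2 alone, H3K4me1 was present in 28.3% in 236L and 22.3% in 236R. Both mutant lines had it in 11.5% of these bins, against 9.15% of the bins with H3K4me1 alone. Within 2.5 kb of gene ends these shares were 11.6 and 14.0%, and beyond they were 11.3 and 8.65%, so their order depended on distance. By line, the share at bins with H3K4me2 alone was the higher one in 236L and the lower one in 236R.

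Chromosome X was low in both marks and lower in H3K4me1. It held 6.28% of all bins, with 1.97 H3K4me1 and 7.81 H3K4me2 bins per 1000 against 34.95 and 26.9 on autosomes. KDM6A (1.00 and 0.855% of its cover) and H3K27me3 (0.132 and 0.230%) were also low there. It held 337 bins with H3K4me1 in both lines and 1334 with H3K4me2, against 85997 and 66086 on the autosomes. Of its H3K4me2 bins 8.47% also had H3K4me1, against 46.1% on autosomes. The contrast was present within 2.5 kb of gene ends (3.44 against 26.7%) and beyond (18.0 against 64.7%). None of the 966 X-linked genes was dominated by H3K4me1, and 263 (27.2%) were dominated by H3K4me2, compared with 14.3 and 17.7% of autosomal genes. H3K4me1 covered 0.563 and 0.694 Mb of chromosome X and H3K4me2 1.57 and 1.71 Mb. Chromosome 19 was the lowest autosome, with H3K4me1 at 25.9% of its H3K4me2 bins, and chromosome 4, which holds Camta1, had 2.74 bins with H3K4me1 alone for each with H3K4me2 alone against 1.57 on all autosomes. The values of chromosome 19 differed between lines as given above, and its low share was not tested apart from that difference.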

How the data were processed

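ChIP-seq peak lists of H3K4me1 and H3K4me2 were used from 2 control lines, 1 list per library. The submitters' processing notes name Bowtie2 2.4.2, MACS3 3.0.0a7 and the genome build mm10, and leave the calling threshold and control track unstated. The authors deposited for each broad peak a fold enrichment (a linear ratio) and its −log10 p-value and −log10 q-value. These ranked peaks within a list, and one threshold of q up to 0.001 filtered all lists alike. Filtered lists of the marks were compared, although the filter removed a larger share of the H3K4me1 peaks. Read depth is unknown, so no precision from counts can be given.

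In each library, overlapping peaks on the 19 autosomes and the sex chromosomes were merged (Python 3.11.15, numpy 2.4.6, pandas 2.3.3, matplotlib 3.10.9). Bins of 1 kb were marked at 50% cover. Gene positions (21887 protein-coding genes) and start windows came from RefSeq tables of GRCm38.p6. Gene ends are both ends of each gene, since the gene table has no strand. Libraries were compared by exact two-sided permutation tests, and bins and genes were not treated as replicates. Nothing in the labels says that the lines came from separate animals, so p-values measure the spread between these samples. The routines were tested on simulated peaks with known answers.

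Genes named were, for each direction and leaving out predicted models, the 10 with the largest separation in kb, the 10 with the largest separation as a share of the window, up to 3 called members per direction of 18 gene lists, and fixed neuroendocrine and engineered genes. Some of these genes are not reported here. List members, histone genes and start windows beyond the rule were chosen after their values were seen. Members, classes and lists were chosen with earlier results of these data known. Alternatives covered bin size, cover, peak threshold, list length, distance, window, separation, chromosomes, left-out libraries and differences within lines. Input libraries were not analysed here.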

Additional observations from a re-analysis of the deposited data

Results flagged for a closer look

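For 2 gene lists the median difference between the marks had opposite signs in the 2 lines, with H3K4me2 by sample label; the difference between lines was not tested. For ribosomal protein genes, the median of H3K4me1 minus H3K4me2 was -2.41 kb in 159-1 and 0.072 kb in 1014, a change of 2.48 kb from 159-1 to 1014. With H3K4me2 assigned by the deposited names it was -1.39 and -0.909 kb, the same sign in both. For ion channel and synapse genes the median was 0.792 kb in 159-1 and -2.22 kb in 1014, a change of -3.02 kb. By the deposited names it was -0.644 and 1.32 kb, so the signs were opposite again but in the reverse order.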

How the results depend on the processing

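Of the alternatives for the numbers of bins, 33 values stayed within 1.5 times and 15 moved further; for genes these were 18 and 14, and for the share near gene ends 13 values moved by less than the spread between lines and 32 by more. Bins of 0.5 kb gave 66669 with both marks, 86469 with H3K4me1 alone and 54389 with H3K4me2 alone, and bins of 2 kb gave 11805, 21282 and 14246. A cover of 25% gave 53363 bins with both marks and a cover of 75% gave 16193. At equal covered length 27316 bins had H3K4me1 alone. Leaving out replicates gave 34808 to 44563 bins with both marks, 48127 to 85140 with H3K4me1 alone and 30739 to 42217 with H3K4me2 alone. Bins with H3K4me1 alone numbered 75385 without the 159-1 library of H3K4me1, and with 1 line in each mark they numbered 68246 in 159-1 and 85140 in 1014, or 67990 and 82467 by deposited name.

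Shares near gene ends for both marks, H3K4me1 alone and H3K4me2 alone were 12.9, 3.83 and 51.5% at 1 kb, 38.95, 17.3 and 78.85% at 5 kb, and 21.5, 4.33 and 63.15% with start sites. Peaks of q up to 0.001 gave 24.9% for both marks and 69.4% for H3K4me2 alone, equal length 23.1 and 67.6%. Where the second mark was only not in both lines, H3K4me1 alone had 10.6% and H3K4me2 alone 66.6%. Leaving out replicates gave 25.4 to 31.9%, 9.60 to 10.9% and 60.0 to 69.7%. Without line 1014, H3K4me1 alone had 10.2% and H3K4me2 alone 63.4% near gene ends, and by deposited name H3K4me1 alone had 10.8%. Without line 159-1 by deposited name they had 10.0 and 66.5%, and without the H3K4me2 library labelled 159-1 they had 10.5 and 63.2%. The order of the classes was the same in each of these.

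Genes dominated by H3K4me1 and H3K4me2 numbered 970 and 7774 with windows at gene ends and a separation of 1 kb together, 1743 and 6301 at q up to 0.001, 1601 and 6745 at equal length, 1595 and 568 with a separation of 5 kb, and 5163 and 8326 with any separation. The gene body alone gave 1401 genes for H3K4me2 and a separation of 1 kb gave 6083. Windows of 50 kb gave 4861 genes for H3K4me1 and a ratio of 2 gave 1188. Leaving out replicates gave 3236 to 4209 and 4399 to 5034 genes. The difference in median width turned to -320.5 bp at q up to 0.001. Causes were not tested beyond what each setting removes.

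With the replicate block, taking differences within each line, 3080 and 4199 genes were dominated, or 3401 and 4352 with H3K4me2 assigned by deposited name. The paired differences were 100.5 bp in width and -40.3 Mb in length (exact p = 0.5 for both, the smallest for 2 pairs). Start sites, autosomes only, any separation, the second mark not in both lines and assignment by deposited name were chosen after seeing the data. Depth is unknown, so a missing peak cannot be read as an unmarked site.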
